A study of Mus musculus with 30 samples.

Results

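The glycolysis enzymes were 10 genes named by symbol (Hk1, Hk2, Gpi1, Pfkl, Pfkm, Pfkp, Aldoa, Tpi1, Eno1 and Ldha), which were looked up in the count tables of mouse aorta and kidney. All 10 were found among the 41128 genes of both tables, and all 10 passed the filter on low counts in both tissues, in which 14796 genes of the aorta and 15034 genes of the kidney were tested. No member passed an edgeR adjusted p of 0.05 in any of the comparisons of diet and genotype, in which 0% to 2.3% of all genes passed. DESeq2, run as an alternative, called 6 for diet in WT aortae (4.5% of all genes) and 1 for diet in KO kidneys (4.62% of all genes). Of the 10, 5 were nevertheless far from even across aortae: Eno1, Ldha, Pfkl, Hk2 and Aldoa differed 4.08-fold (Aldoa) to 6.34-fold (Eno1) between the lowest and the highest aorta and were highest in the same 3 mice on standard-fat diet, whose aortae also had the most transcripts of fat cell genes, while Gpi1 (2.21-fold) and Tpi1 (2.05-fold) varied less and Hk1, Pfkm and Pfkp stayed within 1.52-fold.

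Glycolysis splits glucose to pyruvate in the cytosol and yields ATP without oxygen, and lactate dehydrogenase regenerates the NAD+ that keeps it running. Hexokinase traps glucose as its phosphate, and phosphofructokinase makes the committed step, so that the isoforms of these enzymes set much of the control. Smooth muscle of large arteries is known for a high output of lactate even with oxygen at hand, adipocytes feed glycolysis into glycerol and fatty acids, and in the kidney glycolysis is placed mainly in the segments after the proximal tubule, which itself makes glucose.

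By GENCODE vM21 on GRCm38, the genes of the first steps lie at chr10:62268855-62379908 (Hk1), chr6:82725025-82774454 (Hk2), chr7:34201330-34230336 (Gpi1), chr10:77986947-78010083 (Pfkl), chr15:98092589-98132451 (Pfkm) and chr13:6579768-6648777 (Pfkp). Those of the later steps lie at chr7:126795234-126800751 (Aldoa), chr6:124810586-124814296 (Tpi1), chr4:150236721-150248879 (Eno1) and chr7:46841475-46855627 (Ldha).

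Total RNA, depleted of ribosomal RNA, was sequenced from aortae (14 libraries) and kidneys (16 libraries) of male C57BL/6 mice with a Cre that tamoxifen switches on and that the Smmhc (Myh11, smooth muscle myosin heavy chain) promoter drives. Knockout mice (KO) had in addition both Egfr alleles flanked by loxP sites, so that deletion of Egfr was directed to smooth muscle, and wild-type controls (WT) carried Cre without loxP sites. All mice received tamoxifen, 1 mg per day for 5 days. High-fat diet (HFD) or standard-fat diet (SFD) was then given from 6 weeks of age for 18 weeks. The aorta groups were WT-SFD (n = 3), WT-HFD (n = 4), KO-SFD (n = 3) and KO-HFD (n = 4), and each kidney group had n = 4. Replicates are numbered here in the order of the records, so that the number carries no pairing. Total counts were 6403699 to 13052870 per aorta and 16354880 to 28331314 per kidney, and levels are given as CPM, the count as a share of the library total scaled by edgeR's TMM factors.

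The targeted gene, Egfr, was checked first. Its level in the aorta was 46.7, 39.5 and 54.3 CPM in WT-SFD, 65.1, 57.0, 51.2 and 57.0 CPM in WT-HFD, 26.8, 35.5 and 28.0 CPM in KO-SFD and 27.5, 40.6, 39.7 and 33.4 CPM in KO-HFD. On both diets the KO values were all below the WT values, with log2 fold changes of -0.64 on SFD (SE 0.167, edgeR adjusted p = 0.547) and -0.70 on HFD (SE 0.143, edgeR adjusted p = 0.129). In the kidney, where vascular smooth muscle is a small share of the cells, the log2 fold change of Egfr was 0.09 on SFD and -0.09 on HFD.

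The aorta libraries differed in their cell type marker transcripts. The defining smooth muscle marker Acta2 was the most abundant gene of its list, at 4235 to 8745 CPM, and 6 of 8 smooth muscle markers had counts, while Tagln and Cnn1 were listed at 0. All 6021 genes of chromosomes 9, X, Y and the mitochondrial genome, and all 526 genes of chromosome 8 beyond position 97566592 (GRCm38), were at 0 in every library of both tissues. Tagln and Cnn1 lie in this stretch, so that their 0 says nothing of expression, and it also leaves Pkm (pyruvate kinase), Pgk1 (phosphoglycerate kinase) and Adpgk (an ADP-dependent hexose kinase) without a value.

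All 12 adipocyte markers had counts, and their summed level was 6179, 5045 and 333 CPM in WT-SFD, 327, 327, 503 and 419 CPM in WT-HFD, 4065, 1279 and 329 CPM in KO-SFD, and 270.5, 384, 329 and 250.2 CPM in KO-HFD. Replicates 1 and 2 of both SFD groups therefore stood apart from the other 10 aortae, although the labels say that adjacent fat had been taken off. The most abundant adipocyte marker was Lpl, which hydrolyses circulating triacylglycerol, at 1512, 1464 and 87.1 CPM in WT-SFD. All 6 brown adipocyte markers had counts too, summing to 1191, 667 and 26.4 CPM in WT-SFD and to 585, 268 and 17.3 CPM in KO-SFD against 14.5 to 65.6 CPM in the 8 HFD aortae, led by the uncoupling protein Ucp1. The smooth muscle sum was 9979 and 12330 CPM in replicates 1 and 2 of WT-SFD, 10740 CPM in replicate 1 of KO-SFD and 14900 to 17970 CPM in the other 11 aortae. Replicate 2 of WT-SFD also had the highest cardiac muscle sum, 649.7 CPM against 99.7 to 207 CPM elsewhere. Estimates without the 4 fat-rich libraries are therefore set beside each aorta comparison. Without them Egfr had -0.95 on SFD (edgeR adjusted p = 1) and -0.70 on HFD (edgeR adjusted p = 0.0370).

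The first comparison asked how a high-fat diet changed the enzymes in WT aortae. None of the 10 members passed the test, as did none of all genes tested (0% called), although 2464 genes (16.7%) and 7 members had an unadjusted p under 0.05. By DESeq2, 6 members and 666 genes passed. Of the 10 log2 fold changes, 9 were below 0 and 1 above, with a median of -0.92 against -0.01 over all genes. In bulk tissue, fewer cells of a type and less RNA per cell cannot be told apart.

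**Figure D1:**
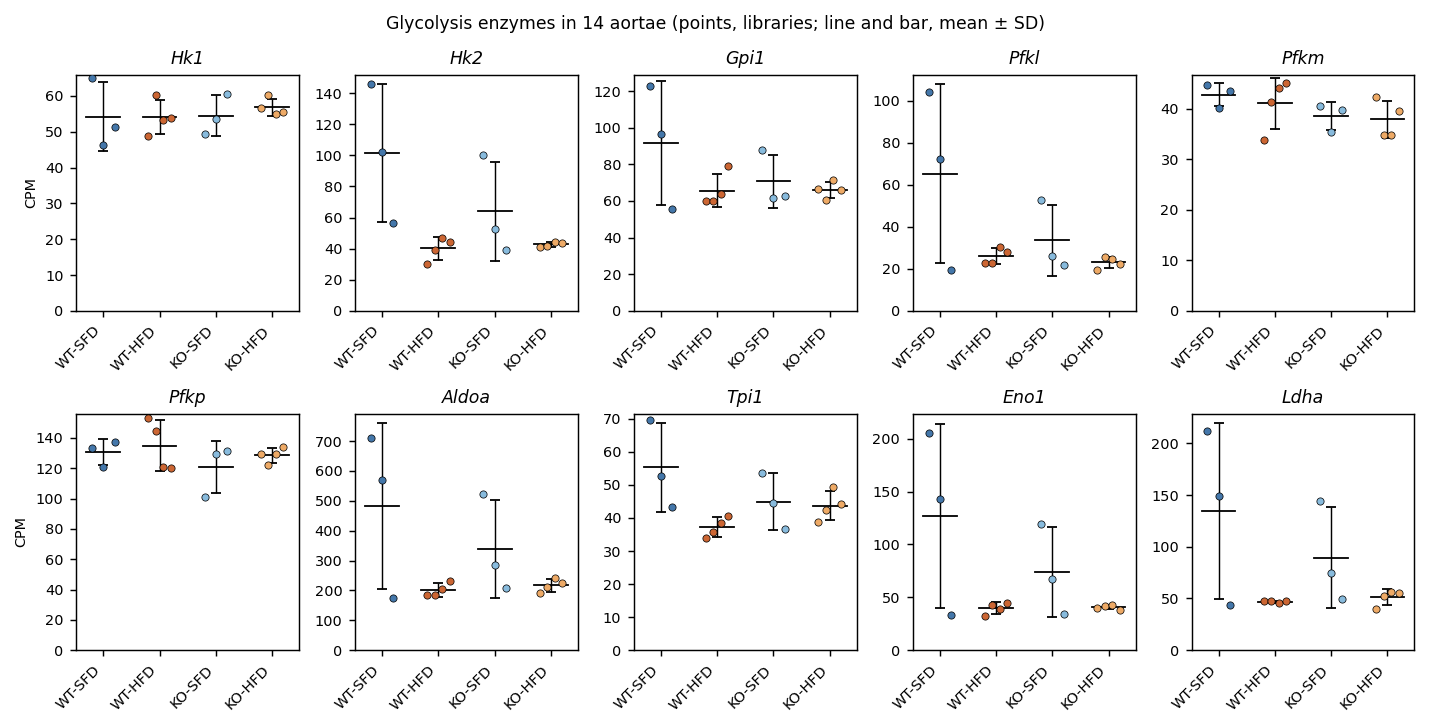
CPM of each glycolysis enzyme in 14 aortae (y axis, from 0) by group (x axis), with points for libraries and lines and bars for mean ± SD. Eno1, Ldha, Pfkl, Hk2 and Aldoa reach their highest values in replicates 1 and 2 of WT-SFD and replicate 1 of KO-SFD, whereas Hk1, Pfkm and Pfkp stay within 1.52-fold across all libraries.

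At the hexokinase step, Hk1 is the housekeeping form and Hk2 the insulin-responsive form of fat and muscle. Their estimates differed in size, though neither passed and no test set them against each other. Hk2 was at 146, 102 and 56.7 CPM in WT-SFD and at 30.3, 39.2, 47.1 and 44.0 CPM in WT-HFD. Every WT-HFD aorta lay below every WT-SFD aorta, the fat-poor replicate 3 included, with a log2 fold change of -1.34 (SE 0.298, edgeR adjusted p = 0.0780). Hk1 was at 65.0, 46.4 and 51.4 CPM in WT-SFD and at 48.8, 60.3, 53.4 and 53.8 CPM in WT-HFD. These groups overlapped fully, and the 95% interval of the log2 difference of Hk1 was -0.24 to 0.23. Such intervals, here and below, are normal ones from the SE and are narrower than the edgeR test implies. Gpi1, which turns glucose 6-phosphate into fructose 6-phosphate, was at 123, 96.4 and 55.6 CPM in WT-SFD and 60.0, 59.8, 63.7 and 78.9 CPM in WT-HFD, so that replicate 3 of WT-SFD was the lowest of all 7, and the log2 fold change was -0.48 (SE 0.206, edgeR adjusted p = 0.251).

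The phosphofructokinase genes encode the liver (Pfkl), muscle (Pfkm) and platelet (Pfkp) subunits of 1 tetrameric enzyme. Among them Pfkl had the estimate of the largest size, though none passed and no test set them against each other. Pfkl was at 104, 72.3 and 19.6 CPM in WT-SFD and at 23.0, 22.9, 30.7 and 28.1 CPM in WT-HFD. Its groups overlapped because replicate 3 of WT-SFD was again the lowest of the 7 libraries, and the log2 fold change was -1.32 (SE 0.393, edgeR adjusted p = 0.0997). Pfkm ran from 33.9 to 45.01 CPM and Pfkp from 120.2 to 153 CPM over the same 7 aortae. Their log2 fold changes were -0.06 (95% interval -0.29 to 0.17) for Pfkm and 0.05 (95% interval -0.19 to 0.28) for Pfkp.

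Below the phosphofructokinase step, Aldoa, the aldolase that cleaves fructose bisphosphate, was at 709, 569 and 174 CPM in WT-SFD and at 183, 184, 206 and 231 CPM in WT-HFD. Replicate 3 of WT-SFD was the lowest of the 7 aortae, and the log2 fold change was -1.27 (SE 0.356, edgeR adjusted p = 0.0876). Tpi1, which interconverts the triose phosphates, was at 69.7, 52.8 and 43.3 CPM in WT-SFD and at 34.0, 35.8, 38.6 and 40.7 CPM in WT-HFD. Here every WT-HFD aorta lay below every WT-SFD aorta, with a smaller log2 fold change of -0.57 (SE 0.158, edgeR adjusted p = 0.0867). Hk2 and Tpi1 were the 2 members whose WT groups did not overlap, where 8.96% of all genes did not.

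Eno1, the enolase that forms phosphoenolpyruvate, had the most negative estimate of the 10 members. Its level was 205, 143 and 32.8 CPM in WT-SFD and 32.3, 42.8, 39.3 and 44.5 CPM in WT-HFD, a log2 fold change of -1.68 (SE 0.442, edgeR adjusted p = 0.0811). Ldha, the lactate dehydrogenase subunit that favours the making of lactate, was at 212, 149 and 43.5 CPM in WT-SFD and at 47.2, 47.1, 45.1 and 47.2 CPM in WT-HFD, a log2 fold change of -1.53 (SE 0.394, edgeR adjusted p = 0.0798). In both genes replicates 1 and 2 of WT-SFD were far above all other WT aortae, and replicate 3 was within or below the WT-HFD range. The counts of Eno1 are uncertain, since Eno1b and the pseudogene Gm4735 match its coding sequence at 99.39% and 99.62% identity and took 69.3% to 77.3% of the summed counts in the aorta. With these copies added, Eno1 had 835, 569 and 120.2 CPM in WT-SFD and 142, 139, 149 and 167 CPM in WT-HFD, and its log2 fold change was -1.77 (edgeR adjusted p = 0.0785).

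The 4 fat-rich aortae were next left out, a choice made after seeing the data. That fit leaves 1 library in each SFD group, whose spread is then assumed to be that of the HFD groups. In that fit of the WT diet comparison, against 1 WT-SFD library, the log2 fold change of Hk2 was -0.50 in place of -1.34 (SE 0.186, edgeR adjusted p = 0.795) and that of Tpi1 -0.22 (SE 0.159), whereas Eno1 was at 0.28, Ldha at 0.11, Aldoa at 0.22, Pfkl at 0.42 and Gpi1 at 0.24. With the mean log2 level of the 18 adipocyte and brown adipocyte markers as a covariate in all 14 aortae, Hk2 had -0.60 (SE 0.170, edgeR adjusted p = 0.651), Ldha -0.33, Tpi1 -0.26, Eno1 and Aldoa -0.20, Pfkl -0.11 and Gpi1 -0.03. In this fit 1 member in place of 7 had an unadjusted p under 0.05, as had 7.29% of all genes. Single libraries decided the calls: without replicate 3 of WT-SFD, 7 members were called lower in WT-HFD, among 1801 genes (11.7% of those tested), at edgeR adjusted p values from 7.42e-04 (Eno1 and Ldha) to 0.007 (Tpi1), and without replicate 1 of WT-SFD none was, with edgeR adjusted p values of 0.391 or more. Without replicate 1 of KO-SFD, 4 members were called in this WT comparison (497 genes, 3.26%), and without replicate 3 of KO-SFD 3 were (333 genes, 2.18%), although neither library belongs to the groups compared. Over all alternatives the edgeR or DESeq2 adjusted p ran from 7.42e-04 to 0.849 for Eno1 and from 0.00114 to 0.795 for Hk2.

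**Figure D2:**
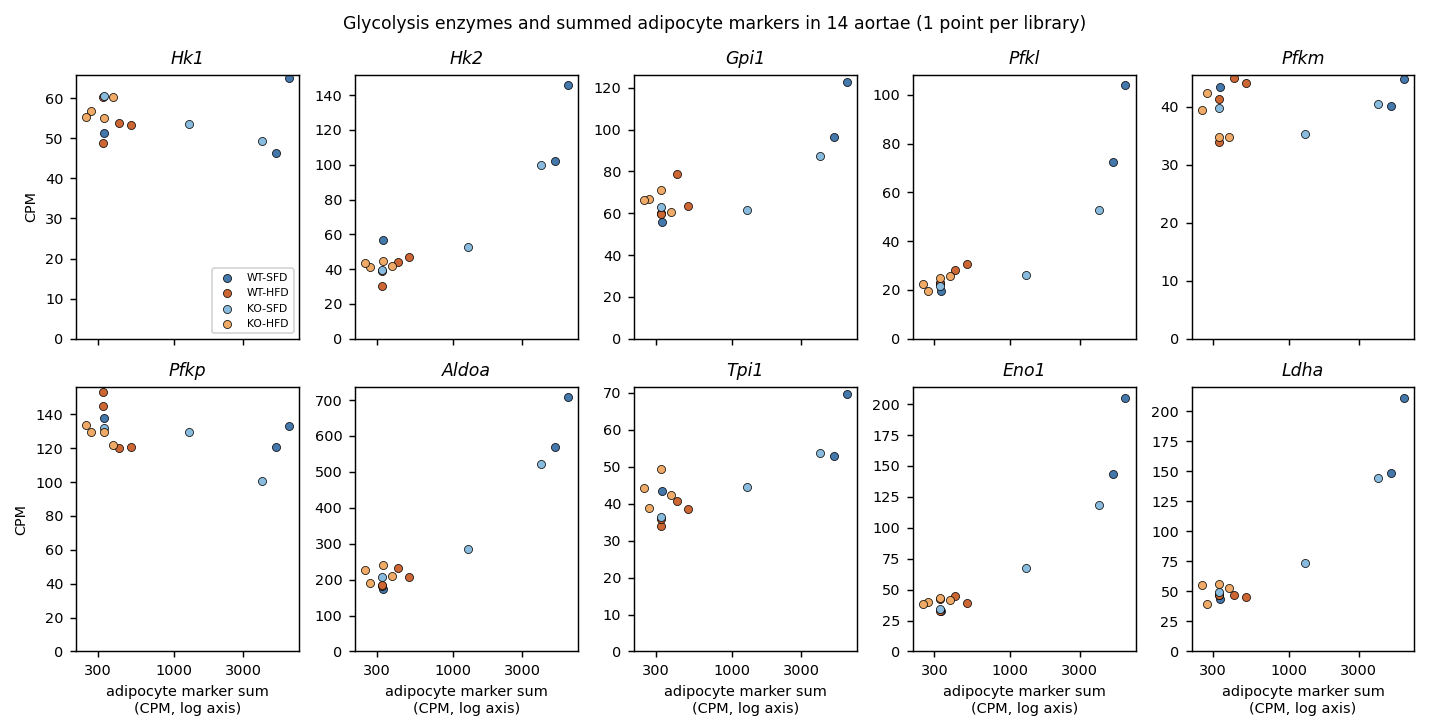
CPM of each member (y axis, from 0) against the summed CPM of 12 adipocyte markers (x axis, log scale) in 14 aortae, coloured by group. Eno1, Ldha, Aldoa, Pfkl and Hk2 are highest in the 3 libraries with marker sums from 4065 to 6179 CPM, and of the 10 libraries under 1000 CPM, WT-SFD replicate 3 is the highest for Hk2 (56.7 CPM).

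For HFD in KO aortae, Eno1 and Ldha again had the most negative estimates. None of the 10 members passed (0% of all genes called), 0 members had an unadjusted p under 0.05, as 1106 genes (7.47%) did, and DESeq2 called 0 members and 8 genes. Eno1 was at 119, 67.6 and 34.5 CPM in KO-SFD and at 39.98, 41.7, 43.0 and 38.0 CPM in KO-HFD, a log2 fold change of -0.85 (SE 0.442, edgeR adjusted p = 0.684). Ldha was at 144, 74.1 and 49.8 CPM in KO-SFD and at 39.6, 52.7, 55.8 and 55.7 CPM in KO-HFD, a log2 fold change of -0.81 (SE 0.394, edgeR adjusted p = 0.673). In both genes replicate 1 of KO-SFD was the highest and replicate 2 the next, in the order of their adipocyte sums, and replicate 3 was within or below the KO-HFD range. Aldoa had a log2 fold change of -0.64, Hk2 of -0.58 and Pfkl of -0.53, and the other 5 members lay between -0.09 (Gpi1) and 0.09 (Pfkp). No member's KO groups were without overlap, as 7.04% of all genes were. Without the 4 fat-rich aortae, Eno1 was at 0.24, Ldha at 0.04, Aldoa at 0.06, Hk2 at 0.12 and Pfkl at 0.09 in this comparison.

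The genotype comparisons and the interaction asked whether loss of Egfr in smooth muscle changed the enzymes or their response to diet. On SFD, KO aortae had lower estimates for 7 members by 0.30 (Tpi1) to 0.97 (Pfkl) on the log2 scale. Pfkm (-0.15) and Pfkp (-0.11) were lower by less, and Hk1 was at 0.008. Of the 10, 0 were called, where 0.0811% of all genes were. Only Pfkl had an unadjusted p under 0.05 (log2 fold change -0.97, SE 0.425, edgeR adjusted p = 0.796), as had 6.14% of all genes, and DESeq2 called 0 members and 21 genes. Without the 4 fat-rich aortae the median of the members was 0.11 in place of -0.45, with Aldoa at 0.27, Hk1 at 0.24, Ldha at 0.20, Gpi1 at 0.18, Pfkl at 0.15 and Eno1 at 0.08, and with Hk2 at -0.53, Tpi1 at -0.24, Pfkm at -0.13 and Pfkp at -0.06. With the fat marker covariate the median was -0.17. No member's genotype groups were free of overlap on SFD (8.57% of all genes) or on HFD (4.18%). On HFD, where all 8 aortae were fat-poor, the 10 log2 fold changes lay between -0.18 (Pfkl) and 0.23 (Tpi1), both with and without the fat-rich SFD aortae in the fit. Of these 0 were called, with 0.0811% of all genes called, 0 had an unadjusted p under 0.05 with all 14 aortae (5.04% of all genes), 1 without the fat-rich aortae (7.45%) and 2 with the fat marker covariate (7.41%), and DESeq2 called 0 members and 40 genes. The interaction was tested as the difference of the diet effect between KO and WT, and 0 members passed (0% of all genes, 2 by DESeq2). Tpi1, the 1 member with an unadjusted p under 0.05 (4.1% of all genes), had an interaction of 0.54 (SE 0.225, edgeR adjusted p = 1), and Eno1, Pfkl, Hk2, Ldha and Aldoa had 0.63 to 0.83. Without the 4 fat-rich aortae the interaction was 0.62 for Hk2 (edgeR adjusted p = 1) and 0.48 for Tpi1, and -0.33 to -0.04 for Eno1, Pfkl, Ldha and Aldoa, with a median of -0.06 over the members in place of 0.58. With the fat marker covariate all 10 were above 0, from 0.03 (Pfkm) to 0.68 (Hk2) with a median of 0.43, and 3 had an unadjusted p under 0.05 (6.1% of all genes), so that Eno1, Pfkl, Ldha and Aldoa differed in sign between these fits. The diet comparisons share their libraries with the genotype comparisons, so that high values in WT-SFD enter both.

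**Figure D3:**
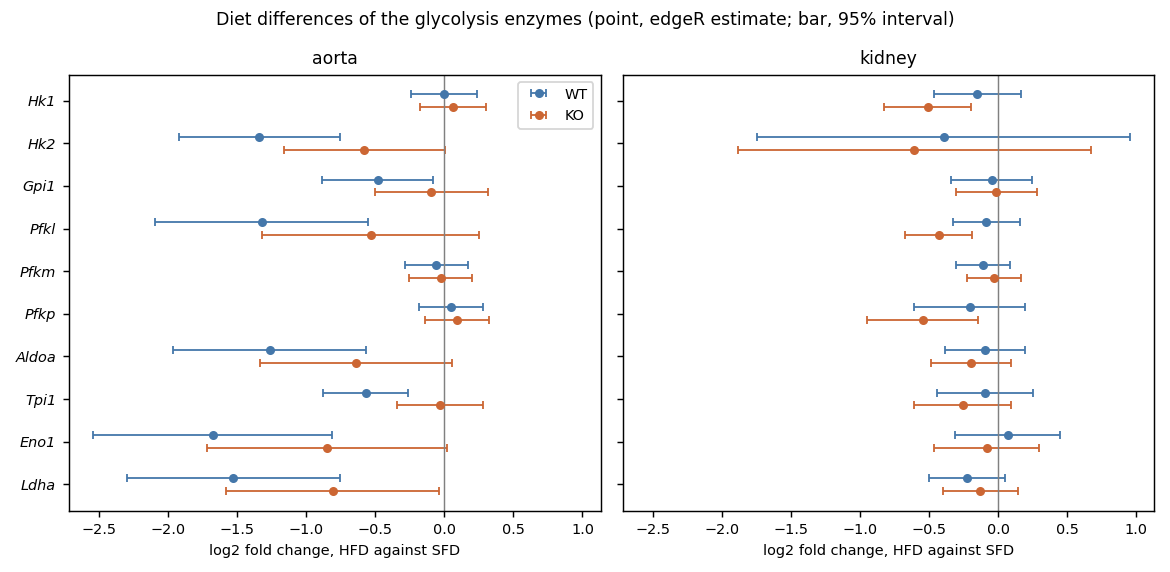
Log2 fold change of HFD against SFD (x axis) for the 10 members in WT and KO mice, aorta on the left and kidney on the right, with points for edgeR estimates and bars for 95% intervals. The WT aorta estimates reach -1.68, whereas those of the kidney lie between -0.61 and 0.07.

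The promoters of Ldha and Hk2, members that were high in the same aortae, and of Pfkp, which was not, are shown as 250 bases before to 50 bases after the annotated start, from RefSeq on GRCm38.p6. Capitals mark ACGTG and GCGTG, the core letters of the hypoxia response element, on either strand, where CACGTG holds ACGTG on both strands and counts 2 times. Ldha lies at chr7:46845554-46845853 on the plus strand, Hk2 at chr6:82774405-82774704 and Pfkp at chr13:6648722-6649021, both on the minus strand.
Ldha: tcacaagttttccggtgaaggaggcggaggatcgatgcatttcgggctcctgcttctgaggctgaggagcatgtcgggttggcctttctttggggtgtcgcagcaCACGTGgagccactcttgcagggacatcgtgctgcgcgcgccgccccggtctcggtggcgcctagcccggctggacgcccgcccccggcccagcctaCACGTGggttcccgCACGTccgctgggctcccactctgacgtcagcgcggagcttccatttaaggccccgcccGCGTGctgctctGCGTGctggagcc
Hk2: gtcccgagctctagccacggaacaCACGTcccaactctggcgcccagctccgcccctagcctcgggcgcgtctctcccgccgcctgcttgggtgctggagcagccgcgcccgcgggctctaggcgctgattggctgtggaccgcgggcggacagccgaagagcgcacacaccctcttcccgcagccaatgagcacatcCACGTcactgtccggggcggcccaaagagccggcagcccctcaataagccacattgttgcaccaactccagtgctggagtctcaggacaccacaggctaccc
Pfkp: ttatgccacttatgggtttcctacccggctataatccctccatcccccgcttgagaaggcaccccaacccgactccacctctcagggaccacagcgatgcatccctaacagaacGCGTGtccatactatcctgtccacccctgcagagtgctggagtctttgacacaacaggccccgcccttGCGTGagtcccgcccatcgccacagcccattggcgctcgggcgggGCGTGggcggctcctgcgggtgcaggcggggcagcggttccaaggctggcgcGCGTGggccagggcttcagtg
Of 32841 mouse promoters of this length, 19.63% held ACGTG, 32.4% GCGTG and 43.78% either. The Ldha promoter held 7 matches, that of Pfkp 4, all GCGTG, and that of Hk2 2, both ACGTG, and 3.86% of all promoters held 4 or more. The Ldha promoter shown is the first of 2 listed, and the other held 2. Of the other members, Hk1 had 0 and 5 matches in its 2 promoters, Pfkm 0 to 3 in 4, Eno1 2 in each of 3, Aldoa 0 to 1 in 3 and Pfkl 1 in 1. The promoters of Gpi1 and Tpi1 held none, which says only that these letters are not in this window.

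Genes of hypoxia signalling itself were looked at as a list of 13, of which 12 were tested and Egln1, in the stretch without counts, was not. None was called in either tissue (0 of 12 in all 10 comparisons), and 2 of 12 had an unadjusted p under 0.05 in each aorta diet comparison, where 16.7% of all genes did in WT and 7.47% in KO. The median log2 fold change of the list for HFD in WT aortae was 0.06. Epas1, which encodes HIF-2 alpha and was the most abundant of the list in the aorta, had a log2 fold change of -0.16 there. Without the fat-rich aortae the median of the list was 0.09 and Epas1 had 0.05. In the kidney the most abundant was Ndrg1, with -0.55 in WT (edgeR adjusted p = 0.564) and 0.27 in KO.

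The rest of the pathway in the aorta was given by lists of genes around the 10 members. Of 16 other glycolytic enzymes 8 were tested, and Hkdc1, Aldoc and Pklr were among those under the filter, besides the 3 without a count. Of the 8, none was called in an aorta comparison. For diet in WT 3 had an unadjusted p under 0.05, as had 16.7% of all genes, and the median log2 fold change was -0.72. Without the fat-rich aortae the median was -0.01. With the fat marker covariate it was -0.18, and 1 of 8 had an unadjusted p under 0.05 (7.29% of all genes). The most abundant was Gapdh, whose counts are uncertain because of its many pseudogenes, of which Gm12671, at 100% identity over 92.8% of the coding sequence, had 25533 counts in the aortae against 15137 of Gapdh itself. Of 7 regulators of flux in the table, 2 were tested, Pfkfb1 and Pfkfb4 lie in the stretch without counts, and 0 were called. The most abundant, Pfkfb3, which makes the activator of phosphofructokinase, had -1.27 in WT (SE 0.410, edgeR adjusted p = 0.129) and -0.06 without the fat-rich aortae (edgeR adjusted p = 0.977).

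Of the 7 genes of glucose entry and lactate exit, all were tested and none was called in the aorta. For diet, 4 in WT and 3 in KO had an unadjusted p under 0.05, as had 16.7% and 7.47% of all genes. With the fat marker covariate it was 2 in WT (7.29% of all genes) and 0 in KO (4.37%). Slc2a4, the insulin-responsive glucose transporter of fat and muscle, was at 114, 78.1 and 24.5 CPM in WT-SFD and at 11.9, 16.6, 16.7 and 21.6 CPM in WT-HFD, without overlap. Its log2 fold change was -2.12 (SE 0.449, edgeR adjusted p = 0.0780), and it was -0.56 without the fat-rich aortae and -0.82 with the fat marker covariate, where it did not pass either. Their most abundant gene, Bsg, the chaperone of the lactate carriers, had a log2 fold change of -0.17 for HFD in WT, and 0.13 without the fat-rich aortae. Of 13 genes that bring pyruvate into mitochondria or control its oxidation, 9 were tested, and Pdha1, Dlat, Pdk3 and Pdp2 lie in the stretch without counts. None was called, and 9 of 9 in WT and 6 of 9 in KO had an unadjusted p under 0.05 for diet, as had 16.7% and 7.47% of all genes, with medians of -1.62 and -0.91. Without the fat-rich aortae the medians were -0.05 and -0.16. With the fat marker covariate 6 of 9 in WT had an unadjusted p under 0.05 (7.29% of all genes), with a median of -0.40. In KO 1 of 9 had in that fit (4.37% of all genes), with a median of -0.06. The most abundant by its mean over all 14 aortae was Pdk4 (19.4 FPKM, per length, against a median of 6.68 FPKM that was below the 8.91 FPKM of Pdk2), the kinase that shuts pyruvate dehydrogenase, at 367, 232 and 13.6 CPM in WT-SFD and 16.2 to 29.2 CPM in WT-HFD. Its replicate 3 of WT-SFD was below all 4 WT-HFD aortae, as in Pfkl and Aldoa, and its log2 fold change in WT was -3.25 with all aortae and 0.66 without the fat-rich ones. By edgeR with all 14 aortae, no gene of any pathway or marker list was called in an aorta comparison.

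The level of each enzyme per length was next set side by side between the tissues, as FPKM over the union of annotated exons, with no test because the tissues were sequenced and tabulated separately. Small RNA held 18.36% to 43.15% of the counts per aorta and 0.0425% to 0.1258% per kidney. These counts are part of the library totals, which lowers the FPKM of other genes in the aorta. In both tissues Aldoa was the highest by median FPKM, at 75.0 in the aorta and 344 in the kidney, followed by Tpi1 (15.6 and 310.1) and Ldha (15.5 and 242). In 3 of the 4 aorta groups, all but KO-HFD, the mean of Ldha was above that of Tpi1, and in WT-SFD that of Eno1 was too (40.7 FPKM for Ldha, 23.6 for Eno1 and 20.1 for Tpi1). In the aorta the middle of the order was close, with Pfkm at 12.1, Gpi1 at 10.1, Pfkp at 9.66, Eno1 at 7.86, Hk2 at 7.42 and Hk1 at 6.38 FPKM, and the ranges over the 14 libraries of each neighbouring pair overlapped. Pfkl was the lowest there by its median over all 14 aortae, 3.78 FPKM, whereas in WT-SFD its group mean of 9.79 FPKM was above those of Pfkp (9.74) and Hk1 (6.36). In the kidney Gpi1 was at 56.0, Eno1 at 46.6, Hk1 at 24.7, Pfkm at 24.0, Pfkl at 19.4 and Pfkp at 5.13 FPKM, and Hk2 at 0.196 FPKM was far below all others. Per length of the longest transcript instead, 10 of these 20 ranks moved, by up to 3 places (Eno1 and Pfkm in the aorta). The place of Eno1 is not settled, since with its copies it had 1293 to 2320 CPM in the kidney against 199.8 to 429 CPM without them.

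**Figure D4:**
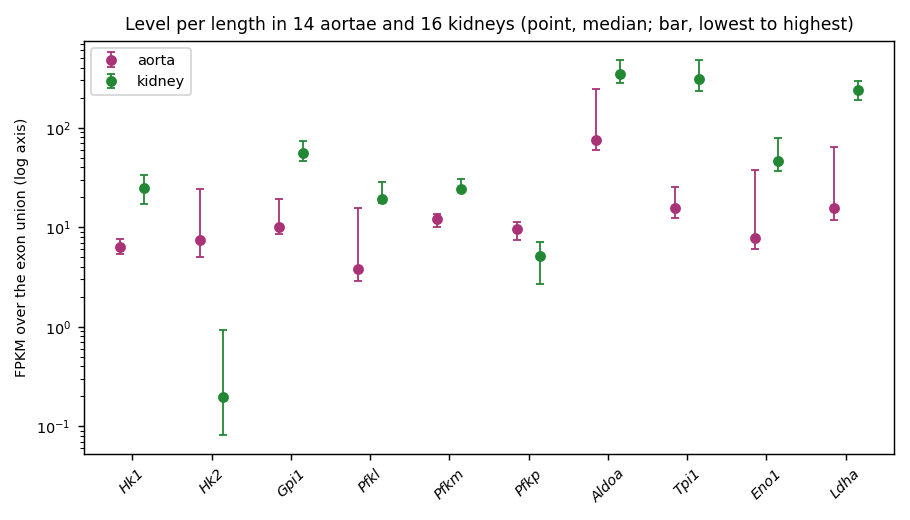
FPKM over the exon union (y axis, log scale) of the 10 members in 14 aortae and 16 kidneys, with points for medians and bars from the lowest to the highest library. Aldoa is highest in both tissues, and Hk2 falls from a median of 7.42 in the aorta to 0.196 in the kidney.

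The members that are isoforms of 1 step were also compared as shares of their summed FPKM. Other hexokinase genes are left out of these shares, such as Hkdc1, whose kidney median of 0.772 FPKM was above the 0.196 FPKM of Hk2. Hk2 made up 47.0% to 76.3% of the hexokinase pair in the aorta and 0.344% to 3.38% in the kidney, where its 16 libraries held 603 counts in all. In the aorta the Hk2 share was 71.1% ± 8.58 (SD, n = 3) in WT-SFD, 51.2% ± 4.27 (SD, n = 4) in WT-HFD, 60.3% ± 13.2 (SD, n = 3) in KO-SFD and 51.8% ± 1.82 (SD, n = 4) in KO-HFD. The lowest WT-SFD share, 61.2% in the fat-poor replicate 3, was above the highest WT-HFD share of 55.8%, whereas the fat-poor replicate 3 of KO-SFD, at 48.2%, was below all KO-HFD shares. Of phosphofructokinase, Pfkm gave a median of 45.6%, Pfkp 39.1% and Pfkl 15.7% in the aorta, and Pfkm 48.6%, Pfkl 41.3% and Pfkp 9.80% in the kidney. The order of isoforms depends on the length used. Per length of the longest transcript, median FPKM in the aorta was 14.91 for Pfkp and 14.01 for Pfkm. In the kidney it was then 34.69 for Pfkl and 27.88 for Pfkm. Hk1 was then above Hk2 in the aorta too, at 12.72 and 8.03 FPKM. Pfkl stayed the lowest of the 3 in the aorta and Pfkp in the kidney. All shares given here use the exon union. The Pfkp shares did not overlap between aorta and kidney (25.5% to 45.7% and 5.64% to 12.6%), whereas those of Pfkl did (11.2% to 40.1% and 37.0% to 45.4%). The highest Pfkl shares of the aorta, 40.1%, 34.0% and 28.8%, were those of replicates 1 and 2 of WT-SFD and replicate 1 of KO-SFD, and the other 11 aortae had 11.2% to 17.1%.

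In the kidney, HFD in WT mice left 0 of 10 called, where 0.911% of all genes were. The 10 log2 fold changes lay between -0.39 (Hk2) and 0.07 (Eno1), 0 had an unadjusted p under 0.05, DESeq2 called 0 members and 263 genes, and no member's groups were free of overlap (5.01% of all genes). Ldha had the smallest p, at 781, 953, 815 and 978 CPM in WT-SFD and 625, 878, 709 and 805 CPM in WT-HFD, a log2 fold change of -0.23 with a 95% interval of -0.50 to 0.05.

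In KO kidneys all 10 estimates for HFD were below 0 (median -0.23), and 0 were called, where 2.3% of all genes were. Hk1, Pfkl and Pfkp had an unadjusted p under 0.05, as did 15.8% of all genes. Pfkl was at 172, 191, 149 and 157 CPM in KO-SFD and at 134, 125, 119 and 119 CPM in KO-HFD. It was the 1 member without overlap (8.87% of all genes), with a log2 fold change of -0.43 (SE 0.124, edgeR adjusted p = 0.0891), and DESeq2 called it among 695 genes. Without replicate 2 of WT-SFD, the highest WT kidney for Pfkl at 182 CPM, Pfkl passed at an edgeR adjusted p of 0.0189, and over all alternatives its adjusted p by edgeR or DESeq2 ran up to 0.388.

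Hk1 was at 289, 272, 277 and 228 CPM in KO-SFD and at 228, 221, 147 and 152 CPM in KO-HFD, a log2 fold change of -0.51 (SE 0.161, edgeR adjusted p = 0.122). Pfkp was at 95.1, 83.7, 77.8 and 73.6 CPM in KO-SFD and at 64.6, 75.2, 36.3 and 49.9 CPM in KO-HFD, a log2 fold change of -0.55 (SE 0.205, edgeR adjusted p = 0.203). In both genes replicates 3 and 4 of KO-HFD were the lowest. These kidneys also had the lowest summed thick ascending limb markers of their group, with 7001, 6750, 3887 and 5349 CPM in KO-HFD and 9060, 7995, 9015 and 8272 CPM in KO-SFD. All 4 markers of that segment had counts, and the most abundant was Umod. With their mean log2 level as a covariate, an alternative chosen after seeing the data, Hk1 was at -0.05, Pfkp at 0.00 and Pfkl at -0.45. The marker sums did not overlap between KO-SFD and KO-HFD, so that diet and marker level are hard to tell apart in that fit. With the 8 proximal tubule markers, all with counts and led by Kap, Hk1 was at -0.09, Pfkp at 0.02 and Pfkl at -0.26.

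Between genotypes in the kidney, 0 of 10 members were called on SFD (0.0133% of all genes) and 0 of 10 on HFD (0.00665% of all genes), and DESeq2 called 0 members among 26 and 1 genes. On SFD the unadjusted p was under 0.05 for 8.37% of all genes and for Hk1 (log2 fold change 0.43, SE 0.161, edgeR adjusted p = 0.529) and Pfkl (0.27, SE 0.124, edgeR adjusted p = 0.588), both higher in KO, whereas on HFD it was for none. Hk2 had 0.88 on SFD and 0.67 on HFD, with levels of 0.488 to 5.57 CPM over the 16 kidneys and 95% intervals of -0.41 to 2.18 and -0.67 to 2.01. No member's groups were free of overlap on SFD (3.98% of all genes) or HFD (1.32%). In the interaction 0 members were called (0% of all genes, 1 by DESeq2) and 0 had an unadjusted p under 0.05. The most negative were Hk1 at -0.36, Pfkl and Pfkp at -0.34.

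Around the members, Pklr, the liver and kidney form of pyruvate kinase, rose under HFD in both genotypes. It was at 35.7, 29.3, 34.5 and 39.3 CPM in WT-SFD and at 74.0, 70.0, 71.4 and 81.1 CPM in WT-HFD, a log2 fold change of 1.10 (SE 0.167, edgeR adjusted p = 0.00205). In KO it was at 38.6, 29.1, 41.6 and 29.2 CPM on SFD and at 60.4, 75.5, 113 and 93.6 CPM on HFD, a log2 fold change of 1.30 (SE 0.168, edgeR adjusted p = 4.42e-04). Every HFD kidney lay above every SFD kidney of its genotype. With the thick ascending limb markers as a covariate Pklr had 0.96 in WT (edgeR adjusted p = 0.00481) and 0.88 in KO, where it no longer passed (edgeR adjusted p = 0.118, with a range down to 6.16e-11 by DESeq2) in a fit that called 9 genes in all against 346 without the covariate.

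**Figure D5:**
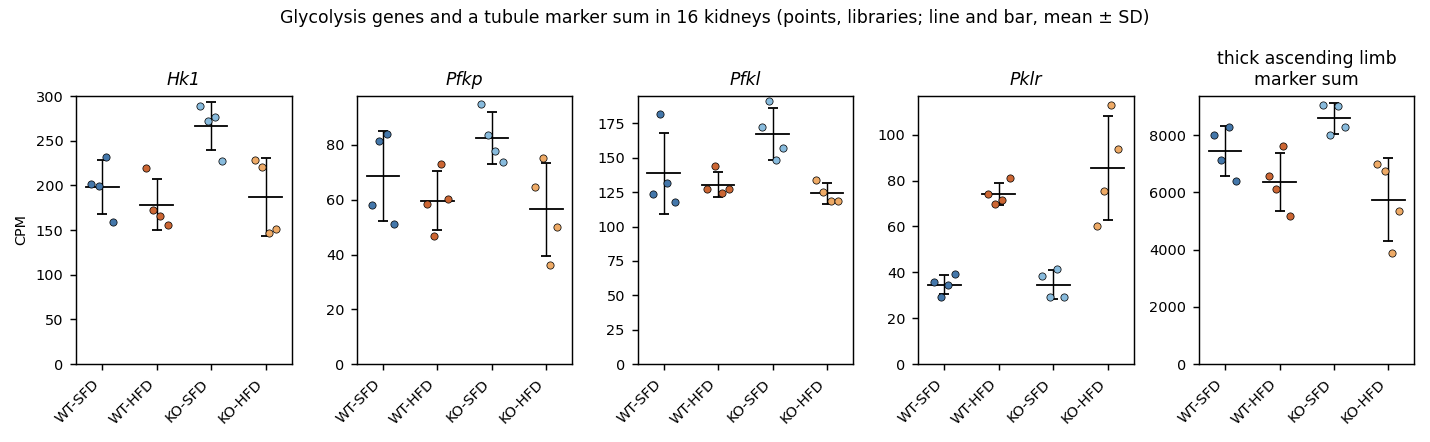
CPM of Hk1, Pfkp, Pfkl and Pklr and the summed CPM of 4 thick ascending limb markers (y axes, from 0) in 16 kidneys by group, with points for libraries and lines and bars for mean ± SD. Pklr is at 60.4 to 113 CPM in the 8 HFD kidneys and at 29.1 to 41.6 CPM in the 8 SFD kidneys, while the lowest single libraries of Hk1 (147 CPM) and of the marker sum (3887 CPM) are in KO-HFD.

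Pklr was the 1 gene called of the 12 other glycolytic enzymes tested in the kidney. Of glucose entry and lactate exit, Slc2a4 fell under HFD in KO, from 42.2, 41.2, 48.6 and 49.9 CPM to 32.3, 34.3, 30.6 and 28.5 CPM, a log2 fold change of -0.53 (SE 0.102, edgeR adjusted p = 0.00844). The groups did not overlap, and in WT its log2 fold change was -0.44 (SE 0.102, edgeR adjusted p = 0.0512). With the proximal tubule or the thick ascending limb covariate Slc2a4 did not pass in KO, at -0.37 (edgeR adjusted p = 0.152) and -0.48 (edgeR adjusted p = 0.137). Of the flux regulators 4 were tested, led by Fbp1 of gluconeogenesis, and 0 were called, and of the 9 genes of pyruvate entry, led by Mpc2, 0 were called.

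Cell type markers called in the same kidney comparisons lay in the adipocyte list (Lep, log2 fold change 4.97, and Lpl, -1.07, of 12 markers), the proximal tubule list (Slc5a2, 1.54, and Slc5a12, 1.13, of 8) and the distal convoluted tubule list (Slc12a3, 0.71, and Pvalb, 1.57, of 3) under HFD in KO. These 6 calls in KO were lost with the thick ascending limb covariate, at edgeR adjusted p values of 0.127 (Slc5a2) to 0.336 (Slc12a3). That fit called 9 genes in all against 346 without the covariate. With the proximal tubule covariate, where 157 genes were called, 5 of them were lost, all but Slc5a2. Slc5a2 and Slc5a12 are among the 8 markers averaged for that covariate, so that it cannot decide their calls. A lost call alone does not show a smaller change. With 1 library left out, the highest edgeR adjusted p was 0.147 for Lpl, 0.0989 for Slc5a12 and 0.0524 for Slc12a3, and Lep fell to 3.59 without KO-HFD replicate 3. In WT only Slc5a2, the glucose transporter of the early proximal tubule, was called, with 1.21 (edgeR adjusted p = 0.00568). The part of these shifts in the values of Hk1, Pfkl, Pfkp and Pklr was not tested beyond the covariate fits given above.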

How the data were processed

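The members and the lists of pathway genes and cell type markers were chosen with earlier results of these data known. The deposited values are whole-number counts of reads per gene, 1 column per library. Per the labels and the study's methods, the authors trimmed adapters with cutadapt, aligned reads to mm10 with TopHat2 and counted them with featureCounts. The strand setting, the treatment of multi-mapped reads and the annotation used for counting are not given in the sources used here. Tissues were fitted apart, since the core facility of a university sequenced one and a company the other.

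Counts were fitted with edgeR 4.0.16 in R 4.3.3 (TMM factors, filterByExpr by group with a minimum count of 10, then glmQLFit and glmQLFTest on a model of group means), with Benjamini-Hochberg adjustment of p over all genes tested. SE is the log2 fold change over the square root of F. Intervals of 95% are normal ones from this SE, so that they are narrower than the F test implies. Each library of a tissue has its own title number and the study counts n in animals, so p values measure the spread between animals. Aorta libraries had a common dispersion of 0.0531 and kidney libraries of 0.0372. In simulated counts with true log2 changes of 1, edgeR recovered 43.9% of changed genes for HFD against SFD in WT aorta (14392 genes) and 84.8% in WT kidney (14890 genes). Every simulated gene had the common dispersion, and no simulated library was fat-rich. In the real WT aorta comparison the SE ran from 0.116 (Pfkm) to 0.442 (Eno1) over the members, with a median of 0.228 over all genes. The recovered share for single members was therefore not tested. A search for duplicated libraries found none (lowest chi-square per gene 8.38 in 91 aorta pairs, 9.21 in 120 kidney pairs). DESeq2 1.42.0, RLE factors, library totals, no filter, a limit of 0.001, only the groups compared, marker covariates and each library left out were alternatives, and copies added to their gene, the thick ascending limb covariate and the fits without fat-rich aortae were added after seeing the data. Exon lengths came from GENCODE vM21 (40254 of 41128 identifiers found), copies from blastn 2.17.0 (identity of at least 90% over at least 80% of the coding sequence), and promoters from RefSeq (GRCm38.p6), with all 10 members matched. Genes named were the 10 members, Egfr and, by a set rule, listed genes that passed, had no usable count or were the most abundant of their list, and some listed genes are not reported here.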

Additional observations from a re-analysis of the deposited data

Results flagged for a closer look

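In 76 groups of 4 libraries, 5 held a library whose gap to the nearest of the others passed Dixon's critical share of the group's range, where chance gives about 1 in 20 groups. Ldha in aorta WT-HFD was at 45.1 CPM in replicate 3, while the other 3 were at 47.1 to 47.2 CPM, so that the gap itself was small. Near-identical copies of Ldha, 4 in number, held 2.27% to 12.1% of the summed counts in the aorta. With them added, replicate 3 was at 49.4 CPM and the other 3 were at 50.2 to 53.7 CPM. Pfkl in kidney WT-HFD was at 144 CPM in replicate 2, with the others at 124 to 127 CPM. Replicate 2 of kidney WT-SFD stood apart for both Pfkm, at 101.3 CPM against 77.4 to 81.4 CPM, and Eno1, at 291.4 CPM against 209 to 222 CPM. Slc2a4 in kidney WT-HFD was at 31.3 CPM in replicate 1, with the others at 27.8 to 28.3 CPM. The part of any batch, cell makeup or depth in these 5 values was not tested.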

How the results depend on the processing

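The count of members called moved in 2 of 10 comparisons. For HFD in WT aortae it was 0, against 6 by DESeq2 (666 genes, 4.5% of those with an adjusted p), 5 with no filter on low counts (527 of 26846 genes), 2 with library totals in place of TMM (219 genes, 1.48%), and 0 to 7 with 1 library left out (7 without WT-SFD replicate 3, with 1801 genes, 11.7%). For HFD in KO kidneys it was 0, against 1 by DESeq2 (695 genes, 4.62%) and 0 to 1 with 1 library left out (1 without WT-SFD replicate 2, with 394 genes, 2.58%). In the other 8 comparisons it was 0 under every alternative run. Of the 100 log2 fold changes of members, 34 were followed singly through the alternatives. Of these 11 kept their direction throughout and 23 reversed under at least 1 alternative. Of the other 66, 48 changed sign and 0 passed the limit. Some of the 66 are printed above, such as Ldha for HFD in WT kidneys and the kidney interactions. No paired analysis was possible because no title number occurs in more than 1 group of a tissue.

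Most reversals came with the fat-rich aortae left out, an alternative chosen after seeing the data. For HFD in WT the values were then 0.22 for Aldoa, 0.28 for Eno1, 0.24 for Gpi1, 0.076 for Hk1, 0.11 for Ldha, 0.42 for Pfkl and -0.026 for Pfkp, and for HFD in KO 0.06 for Aldoa, 0.24 for Eno1, 0.12 for Hk2, 0.036 for Ldha and 0.089 for Pfkl. For KO against WT on SFD they were 0.27 for Aldoa, 0.077 for Eno1, 0.20 for Ldha and 0.15 for Pfkl, and for the interaction -0.16 for Aldoa, -0.042 for Eno1, -0.070 for Ldha and -0.33 for Pfkl. With the fat marker covariate, HFD in KO aortae gave 0.20 for Aldoa, 0.30 for Eno1, 0.084 for Hk2, 0.13 for Ldha and 0.36 for Pfkl, and HFD in WT gave -0.094 for Pfkp. Hk1 for HFD in WT aortae, near 0 throughout, was 0.0073 by DESeq2, 0.0056 with RLE factors, 0.11 with library totals, 0.033 with no filter and 0.0042 with only the groups compared, and Pfkm with library totals was 0.047. With library totals the median of all genes for KO against WT on SFD in the aorta was 0.27 in place of -0.0255. For HFD in KO kidneys, Hk2 was 0.46 with the proximal tubule and 0.024 with the thick ascending limb covariate, and Pfkp 0.0245 and 0.0041. With 1 library left out, HFD in WT aortae gave -0.10 to 0.15 for Hk1, -0.10 to 0.024 for Pfkm and -0.0215 to 0.10 for Pfkp. The causes of these reversals were not tested. At 6403699 to 13052870 counts per aorta and with the spread of the SFD groups, differences of 1 on the log2 scale were not always detectable.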
